A study of Homo sapiens with 2 samples.

Results

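The mRNAs of 9 cytoskeletal genes were examined for sites bound by YB-1 (YBX1), an RNA-binding protein with a cold shock domain. They encode the cytoplasmic actins (ACTB and ACTG1), α-tubulins (TUBA1A, TUBA1B and TUBA1C), β-tubulins (TUBB and TUBB4B) and the actin-binding proteins cofilin (CFL1) and profilin (PFN1). The genes were chosen from these same tables with their clusters already known, so the number of their clusters and their coverage are a description, without a test. A cluster, a stretch of crosslinked reads, was assigned to a gene when it shared at least 1 base with the gene's span on the same strand (GENCODE release 44, genome build hg38). By this rule, 16 of the 1382 clusters of Rep.A and 21 of the 2011 clusters of Rep.B lay in 6 of the 9 genes. The clusters of both replicates that overlapped were joined, which gave 23 sites in these genes. Of these, 14 were found in both replicates, among 1112 such reproducible regions in the whole data set.

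YB-1 PAR-CLIP was carried out in 2 replicates of a single condition, with no control library. The cells were wild-type HEK293T, an established line from human embryonic kidney, which the tables of clusters hold no expression values to check. The cells were kept with 100 µM 4-thiouridine for 16 h and irradiated at 365 nm with 0.15 J/cm2. RNA in complexes was digested with RNase T1, a nuclease that cuts 3′ of G, and recovered from cytoplasmic lysate with a rat polyclonal antibody against a C-terminal peptide of YB-1. After crosslinking to protein, 4-thiouridine gives a T-to-C change in the reads. The deposited mean coverage is given in reads per base and is not scaled for depth. Over all 1112 reproducible regions its median difference on the log2 scale, Rep.B minus Rep.A, was 1.38 (SD 0.71).

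Actin and tubulin are the building blocks of microfilaments and microtubules. Actin monomers carry ATP and polymerise into polar filaments, and a dimer of α- and β-tubulin carries GTP and adds to microtubule ends. Profilin delivers actin monomers to growing filament ends, and cofilin severs older filaments. The cytoplasmic actins and the α-tubulins are encoded by closely similar gene copies, and highly expressed mRNAs of this kind have left many processed pseudogenes, that is, intronless copies, in the human genome. The protein part of a family is therefore conserved in sequence, whereas the untranslated regions (UTRs) differ between its genes. YB-1 binds mRNA throughout its length and is known as a regulator of its translation and packaging.

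The sites that carry the results are printed as DNA letters, 5′ to 3′ on the transcribed strand, as the stretch common to the clusters of both replicates or as the cluster of the only replicate. Capitals mark the tetramers CATC and CACC, which were searched on the transcribed strand alone and may overlap. The first sequences are from the α-tubulin mRNAs and are shown because the same codons carried a site in more than 1 gene.
TUBA1A site 1 (chr12:49186676-49186697, minus strand, codons 47 to 54): attccttcaaCACCttcttcag
TUBA1C site 1 (chr12:49269601-49269622, plus strand, codons 47 to 54): attccttcaaCACCttcttcag
TUBA1B site 1 (chr12:49129565-49129586, minus strand, codons 47 to 54): actccttcaaCACCttcttcag
TUBA1B site 2 (chr12:49128628-49128651, minus strand, codons 221 to 229): cccaacctacactaaccttaaccg
TUBA1C site 2 (chr12:49272540-49272563, plus strand, codons 221 to 229): cccaacctacactaaccttaaccg
TUBA1B site 4 (chr12:49128300-49128317, minus strand, codons 333 to 338): gcCACCATCaaaaccaag

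The next are from the actin mRNAs. ACTB site 3 and ACTG1 site 2 cover the same codons, and the others are sites seen in 1 actin gene and not at the same codons of the other.
ACTB site 2 (chr7:5528282-5528304, minus strand, codons 260 to 267): cactcttccagccttccttcctg
ACTB site 3 (chr7:5528139-5528161, minus strand, codons 276 to 283): aaactaccttcaactcCATCatg
ACTB site 4 (chr7:5527761-5527782, minus strand, codons 365 to 372): ccggcccctcCATCgtcCACCg
ACTG1 site 1 (chr17:81511600-81511616, minus strand, codons 125 to 130): agaccttcaaCACCccg
ACTG1 site 2 (chr17:81511062-81511081, minus strand, codons 277 to 283): cCACCttcaactcCATCatg

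The last are from TUBB and are shown for the coding site of highest coverage in that gene and for the 3′ UTR sites found in both replicates.
TUBB site 3 (chr6:30723827-30723847, plus strand, codons 255 to 262): caacatggtccccttcccacg
TUBB site 4 (chr6:30724585-30724602, plus strand, 3′ UTR): ctctctctttccactctg
TUBB site 6 (chr6:30725260-30725282, plus strand, 3′ UTR): caaCATCtcatttcttccttttg

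The sites were few per mRNA and most lay in the coding sequence. ACTB (chr7:5526409-5563902, minus strand) had 5 sites, ACTG1 (chr17:81509413-81523847, minus strand) had 2, TUBA1A (chr12:49184686-49189080, minus strand) had 1, TUBA1B (chr12:49127782-49131397, minus strand) had 5, TUBA1C (chr12:49188736-49274600, plus strand) had 4 and TUBB (chr6:30717435-30725538, plus strand) had 6. TUBB4B (chr9:137241287-137243707, plus strand), CFL1 (chr11:65823022-65862026, minus strand) and PFN1 (chr17:4945652-4949061, minus strand) had no cluster in either replicate. No gene of the 9 had a cluster on its opposite strand. The 14 regions found in both replicates held 14 of the 16 Rep.A clusters (87.5%, 95% Wilson interval 64.0 to 96.5) and 14 of the 21 Rep.B clusters (66.7%, 45.4 to 82.8). Over all clusters of the data set these shares were 80.5% and 55.5%, within both intervals. Each of the 6 genes with a cluster held a reproducible region, where 59.6% of the 1115 protein-coding genes with a cluster in either replicate did, and 3.32% of all 20046 annotated protein-coding genes. As the genes were chosen with their clusters known, nothing is read from these shares.

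**Figure D1:**
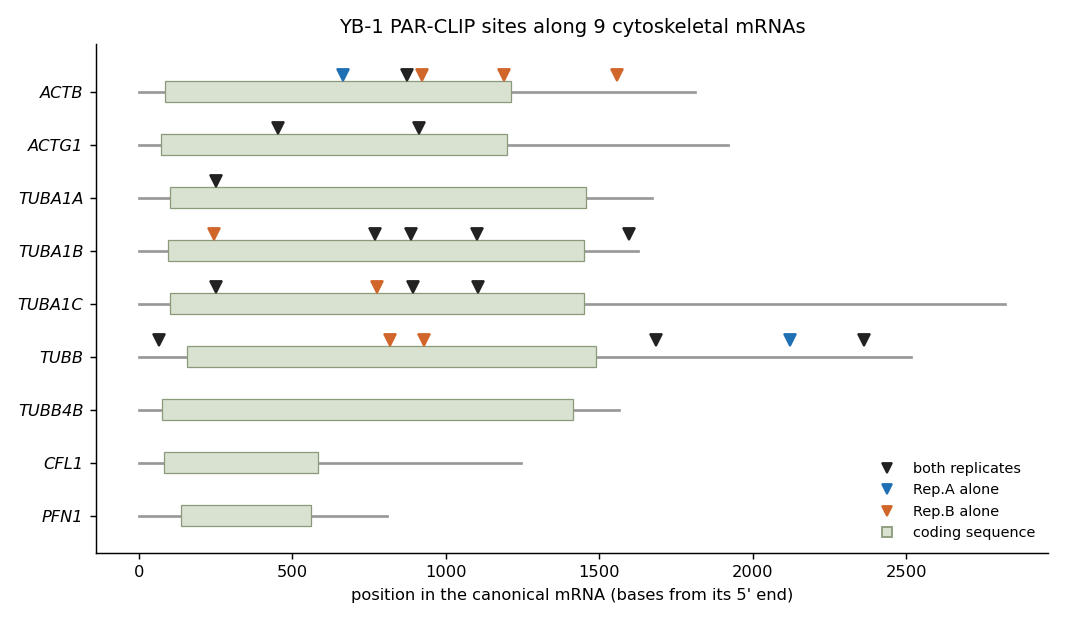
Position of the 23 sites along the canonical mRNA of each gene, in bases from its 5′ end. Triangles mark sites found in both replicates (black), Rep.A alone (blue) or Rep.B alone (orange), and boxes are coding sequences. Of the sites, 17 lie in coding sequence, 5 in 3′ UTRs and 1 in a 5′ UTR, and TUBB4B, CFL1 and PFN1 carry none.

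Among the reproducible regions, 10 of 14 lay in coding sequence (71.4%, 95% Wilson interval 45.4 to 88.3), 3 in a 3′ UTR (21.4%, 7.57 to 47.6) and 1 in a 5′ UTR. Over the 611 reproducible regions placed on canonical mRNAs of protein-coding genes, the shares were 59.4% in coding sequence, 39.0% in 3′ UTRs and 1.64% in 5′ UTRs, and all of these lay within the intervals of the cytoskeletal genes. Of the 14 regions, 3 had a sequence found once on the main chromosomes, and 1 of these 3 was in coding sequence. The intervals treat the regions as independent, although some hold the same bases in more than 1 α-tubulin gene. Reads of such bases cannot be told apart, so these regions are not separate observations.

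Coverage was higher in Rep.B in all 14 regions, by 0.34 to 2.17 on the log2 scale. The median difference was 1.34 (SD 0.52, n = 14), against 1.42 (SD 0.79, n = 627) over regions in exons of protein-coding genes. The coverage of the 14 regions ran from 3 to 35.0 in Rep.A, with a median of 10. It ran from 7 to 108 in Rep.B, with a median of 19. The medians of all 627 exon regions were 14 and 37. Of the 14 regions, 5 lay above the median of those exon regions by Rep.A coverage and 4 by Rep.B coverage. The sites found in Rep.B alone ranged more widely, from 3.87 to 198. Their median was 69 (n = 7), against 13.3 over all 895 Rep.B clusters without a Rep.A counterpart. A counterpart was sought at the same place only, and some of these sequences had a Rep.A cluster at an exact copy elsewhere.

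**Figure D2:**
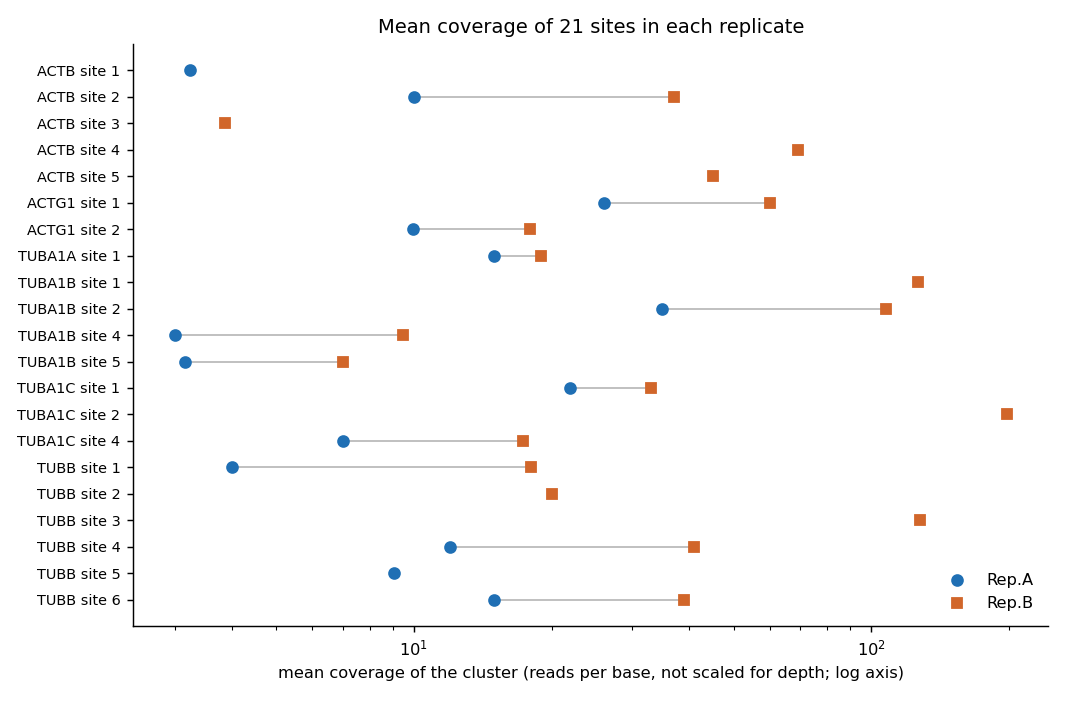
Mean coverage of 21 of the 23 sites in Rep.A (circles) and Rep.B (squares), in reads per base on a log axis and not scaled for depth, with a line joining the values of a site found in both. Rep.B is higher at each of the joined sites. The highest values of all, 198 at TUBA1C site 2, 128 at TUBB site 3 and 127 at TUBA1B site 1, belong to sites found in Rep.B alone. Their deposited log odds scores were low, at 0.0358, 0.0465 and 0.0954. The scores of the other Rep.B clusters in these genes ran from 0.0952 (TUBB site 6) to 1.20 (TUBA1B site 4). Exact copies of TUBA1C site 2 and TUBA1B site 1 had a Rep.A cluster, in TUBA1B (35.0) and the pseudogene TUBA5P (61.9).

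**Figure D3:**
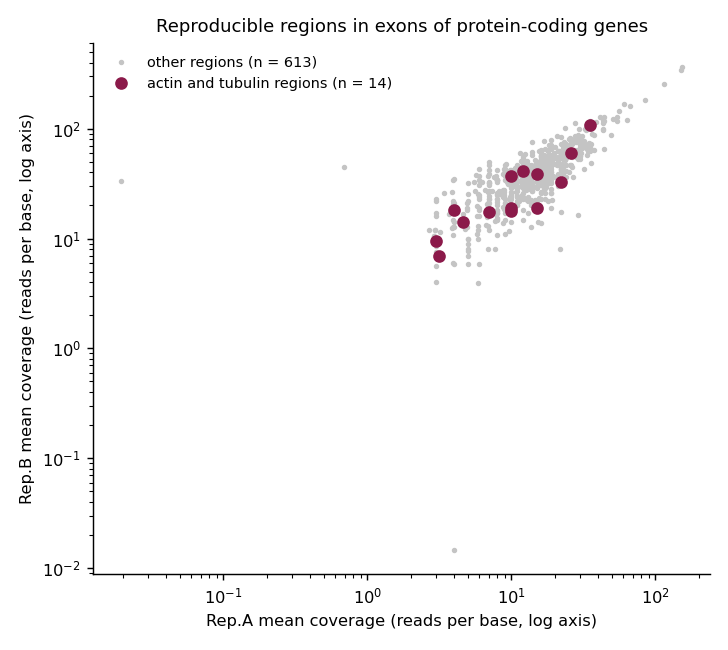
Coverage in Rep.A against Rep.B (reads per base, both axes logarithmic) for the 627 reproducible regions in exons of protein-coding genes, with the 14 actin and tubulin regions as large points. These lie within the cloud of the other regions, and 3 wide regions of other genes fall below a coverage of 1 in a replicate.

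ACTB encodes β-actin and ACTG1 γ-actin, the actins of non-muscle cells. In ACTB (ENSG00000075624), the only region found in both replicates was site 2, in exon 4, with a coverage of 10 in Rep.A and 37 in Rep.B, a difference of 1.89 on the log2 scale. Rep.B had a second T-to-C position there. Site 1, a cluster of 34 bases over codons 188 to 199, was seen in Rep.A alone with a coverage of 3.24, near the lowest value of any site. Site 3 was seen in Rep.B alone with a coverage of 3.87. Sites 4 and 5 were also seen in Rep.B alone but were high there. Site 4, 22 bases in the last exon that close before the stop codon (codons 365 to 372 of 375) and hold both CATC and CACC, had a coverage of 69. Site 5, which begins 334 bases past the stop codon in the 3′ UTR, had a coverage of 45. Both occur once in the genome.

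In ACTG1 (ENSG00000184009), both sites were found in both replicates. Site 1 over codons 125 to 130 had a coverage of 26 in Rep.A and 59.9 in Rep.B, a difference of 1.21, and its 17 bases had no second copy. It was the only coding region of the 14 with a sequence present once. Site 2 over codons 277 to 283 had a coverage of 9.95 in Rep.A and 17.9 in Rep.B, a difference of 0.85.

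The coding sequences of ACTB and ACTG1 were identical at 91.3% of positions, so a site can be set beside the same codons of the other gene. Positions in the substitutions are counted from 1 at the 5′ end of the site, with the base of the site first. ACTB site 2 differed from ACTG1 at A2G and C5G, and no cluster lay at these codons of ACTG1. ACTB site 4 differed by C2G alone and again had no counterpart. ACTG1 site 1 differed from ACTB by G17A, the last base of the site, and no cluster lay at these codons of ACTB. The codons 276 to 283 carried a site in both genes. There ACTB site 3 differed from ACTG1 at A2G and T5C, and both genes share the letters of the second part of the site with its CATC.

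The α-tubulin mRNAs had sites at the same codons of more than 1 gene. TUBA1A, TUBA1B and TUBA1C encode α-tubulins, and their coding sequences were identical at 96.1% to 97.2% of positions. Codons 47 to 54 in exon 2 carried a site in all 3 genes. TUBA1A site 1 (ENSG00000167552) had a coverage of 15 in Rep.A and 19 in Rep.B, a difference of 0.34. TUBA1C site 1 (ENSG00000167553) had 22 and 33, a difference of 0.58. These were the smallest differences between the replicates among the 14 regions. Their 22 bases are identical and lie in a stretch of 165 identical bases, so reads inside this stretch cannot be told apart between the genes. TUBA1B site 1 (ENSG00000123416), which differs from them by C2T, had no cluster in Rep.A and a coverage of 127 in Rep.B.

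Codons 221 to 229 carried a site in TUBA1B and TUBA1C. TUBA1B site 2 had a coverage of 35.0 in Rep.A and 108 in Rep.B, a difference of 1.63, which placed it at the 95.1 and 96.8 percentiles of the 627 exon regions of the replicates. TUBA1C site 2, with the same 24 bases, had a coverage of 198 in Rep.B and no cluster in Rep.A. Both lie in a stretch of 326 bases that is identical in the mRNAs. TUBA1A differs there at 5 positions (C1T, C10T, T19G, C22T and C23A) and had no cluster at these codons.

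Codons 333 to 338 carried sites in the same pair of genes. TUBA1B site 4 had a coverage of 3 in Rep.A and 9.44 in Rep.B. TUBA1C site 4 had 7 and 17.3. The 18 bases of TUBA1B site 4 are identical in TUBA1C and lie in a stretch of 62 identical bases. Reads inside this stretch cannot be told apart between these genes. TUBA1A differs from TUBA1B there by A12G and had no cluster. TUBA1B site 4 holds a single T, within CATC of its CACCATC, so the 1 T-to-C position listed for it in each replicate was that T. The same T is the single one of the TUBA1C cluster of Rep.A. Over the data set, 19 clusters of Rep.A held 1 T and 1 transition. In 2 of them (10.5%, 95% Wilson interval 2.94 to 31.4) this T was within CATC, which are these 2 clusters. As both hold the same T of the same sequence, they are not independent, and the interval does not allow for this. In Rep.B, it was 2 of 31 (6.45%, 1.79 to 20.7), 1 of them at TUBA1B.

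The α-tubulin genes had a single site outside coding sequence. TUBA1B site 5 begins 139 bases past the stop codon and had the lowest Rep.B coverage of the 14 regions, with 7, and 3.16 in Rep.A. It has no further exact copy in the genome.

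TUBB (ENSG00000196230) had sites in all parts of its mRNA. Site 1 in the 5′ UTR, the only site of the 23 upstream of a start codon, had a coverage of 4 in Rep.A and 18 in Rep.B. This was the largest difference between replicates of the 14 regions, 2.17 on the log2 scale. The coding sites 2 (codons 218 to 225) and 3 (codons 255 to 262) were seen in Rep.B alone, with a coverage of 20 and 128. In the 3′ UTR, sites 4 and 6 were found in both replicates and site 5 in Rep.A alone. Site 4, which begins 188 bases past the stop codon, had a coverage of 12 in Rep.A and 41 in Rep.B, a difference of 1.77. Site 5, at 617 bases past the stop, had 9.03. Site 6, at 863 bases, had 15 and 39, a difference of 1.38.

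TUBB4B (ENSG00000188229) encodes another β-tubulin, and its coding sequence was identical to that of TUBB at 84.5% of positions, less than among the α-tubulins. At the codons of TUBB site 2 it differs at 5 positions (A6G, A9C, C15T, G18T and T21C) and at those of site 3 at 4 positions (C1G, C13G, C16T and A19C). No cluster of either replicate, in any gene, had a sequence found in the TUBB4B, CFL1 (ENSG00000172757) or PFN1 (ENSG00000108518) mRNA. Of their windows of 22 bases, 57.1%, 60.6% and 68.1% occur once on the main chromosomes, against 20.9% to 49.7% in the 6 mRNAs with sites. The tables hold no expression values, so the level of these mRNAs in the cells was not compared.

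**Figure D4:**
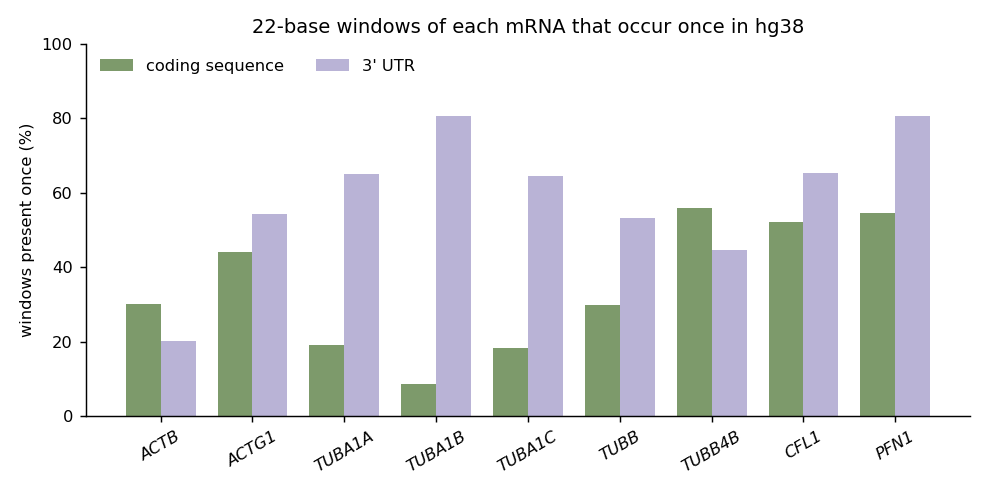
Percent of all 22-base windows of the coding sequence (green) and the 3′ UTR (lilac) of each mRNA that occur once in hg38, counted on both strands of the main chromosomes. In coding sequence the share runs from 8.69% in TUBA1B to 55.9% in TUBB4B, and the mRNAs without a cluster (TUBB4B, CFL1 and PFN1) have the highest coding shares.

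The shared sequence matters for the placement of reads. The authors aligned with a setting that draws 1 position at random for a read with several best matches, so the reads of an mRNA may be divided over its copies. Of the 23 sites, 15 had a further exact copy on the main chromosomes. All clusters whose sequence is held by 1 of the 9 mRNAs were therefore collected, wherever they lay. In Rep.A there were 29, of which 16 were in the 9 genes, 7 in pseudogenes, 4 in POTE genes and 2 outside genes of the annotation on that strand. In Rep.B there were 46, of which 21 were in the 9 genes, 17 in pseudogenes, 5 in POTE genes, 2 outside genes of the annotation and 1 in ACTA1. The POTE genes of this group carry an actin-like sequence in their last part. The actin sequence was the most scattered, with 10 of 14 clusters outside ACTB and ACTG1 in Rep.A and 22 of 28 in Rep.B. For α-tubulin it was 1 of 9 and 1 of 11, and for β-tubulin 2 of 6 and 2 of 7.

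Actin codons 276 to 283 were the most copied site. The 23 bases of ACTB site 3 occur at 13 places, and clusters lay at 4 of these in Rep.A and at 9 in Rep.B, although ACTB itself had none in Rep.A. The Rep.A clusters with ACTB sequence were in ACTG1P21 (3.74), POTEE (4.65) and ACTBP16 (6.85), and a shorter one that both actin mRNAs hold was in POTEF (3). In Rep.B, ACTBP2 (14.6) and POTEJ (12.5) were highest, and ACTB had 3.87. ACTBP9, ACTBP16, ACTG1P21 and POTEI lay between these, ACTBP4 was equal to ACTB and ACTG1P15 was lowest with 3.65. ACTBP4 and ACTG1P12 also lie within the spans of FNIP1 and SYN2, and POTEE within that of PLEKHB2. The 20 bases of ACTG1 site 2 occur at 6 places, 3 of which had a cluster in Rep.A and all 6 in Rep.B. ACTG1P12 had 18.7 and 30.7, above ACTG1 in both replicates, and ACTG1P10 had 13.8 and 19.9. ACTG1P24 (25.6), ACTG1P1 (22.8) and the pseudogene ENSG00000248699 (17.9) had a cluster in Rep.B alone. In all, these actin codons had 7 clusters in Rep.A and 15 in Rep.B. The median coverage of the clusters with ACTG1 sequence was 13.8 in Rep.A (3 clusters) and 21.3 in Rep.B (6 clusters), against 4.65 (3 clusters) and 6.52 (9 clusters) for those with ACTB sequence. These medians are per cluster, while reads could be divided over 6 places for ACTG1 site 2 and 13 for ACTB site 3. Summed over the clusters, coverage was 42.5 in Rep.A and 135 in Rep.B for ACTG1 sequence, against 15.2 and 71.5 for ACTB sequence. Within the 20 bases of ACTG1 site 2, the genes differ by C2T alone, with the T in ACTB. An ACTB read with a T-to-C change at that T would carry the ACTG1 letters. The coverage of the 2 sequences is therefore not cleanly separated, and the share of such reads was not tested.

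The sequence of ACTB site 1 was also found elsewhere. The full site of 34 bases occurs in ACTBP9 besides ACTB. The first 21 bases of the site are shown because clusters of this stretch, or of it with a few bases before, lay in other actin copies in both replicates.
ACTB site 1, first 21 bases: acctcatgaagatcctCACCg
In Rep.A, this sequence had 4 clusters of 3 to 3.24, with those outside ACTB in POTEE, POTEM and the pseudogene ENSG00000243781. In Rep.B, where ACTB had no cluster there, it had 7 clusters of 2.88 to 9, in POTEF, POTEJ, POTEM, ACTBP4, ACTG1P12 and the pseudogenes ENSG00000243781 and ENSG00000176183. The codons therefore had clusters in both replicates, while ACTB alone did not. ACTB site 2 had 1 further copy, in ACTBP11, with a coverage of 8 in Rep.A and 25 in Rep.B beside 10 and 37 in ACTB.

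For α-tubulin, the 22 bases of TUBA1B site 1 also occur in TUBA5P, a transcribed pseudogene on chromosome 1, with no identical base beyond them on either side. TUBA5P had a coverage of 61.9 in Rep.A and 142 in Rep.B. In Rep.A it was the only place of this sequence with a cluster, and in Rep.B it stood beside TUBA1B with 127. The clusters with the sequence that TUBA1A and TUBA1C share at these codons were lower in each replicate, at 15 and 22 in Rep.A and 19 and 33 in Rep.B. The sequences differ by C2T alone, with the T in TUBA1A and TUBA1C. Reads of these genes with a T-to-C change at that T would carry the letters of TUBA1B and TUBA5P. The coverage of the sequences is therefore not cleanly separated, and the share of such reads was not tested.

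**Figure D5:**
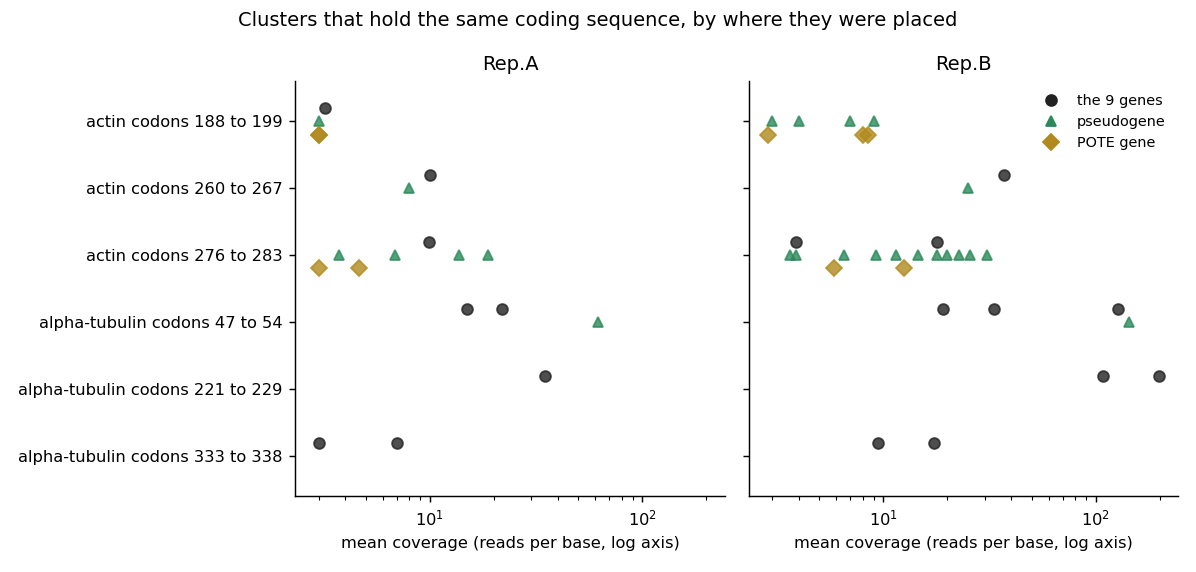
Mean coverage (reads per base, log axis) of each cluster that holds the same coding site, by where it was placed, in Rep.A (left) and Rep.B (right). Black circles are clusters in ACTB, ACTG1 and the α-tubulin genes, triangles are pseudogenes and diamonds are POTE genes. Actin codons 276 to 283 have 7 clusters in Rep.A and 15 in Rep.B, most of them in pseudogenes, whereas the α-tubulin sites have 1 pseudogene, TUBA5P, with 61.9 and 142.

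In β-tubulin, TUBB sites 4 and 6 each had a copy with a cluster on chromosome 13, on the minus strand at 41384507 to 41384524 and 41383824 to 41383846. GENCODE gives no gene there on this strand, and RefSeq (GRCh38.p14) places the pseudogene TUBBP2 at chr13:41383682-41385076. The copy of site 4 had a coverage of 9 in Rep.A and 41 in Rep.B, the latter equal to TUBB. The copy of site 6 had 14 and 22. The other copies of TUBB site 4, 1 on chromosome 2 and 1 on chromosome 17, had no cluster. TUBB sites 1, 2, 3 and 5 occur once on the main chromosomes, and all 6 TUBB sites also occur on 7 alternate contigs of the build. Whether the authors' index held these contigs is not given in the sources used here. Reads on the reference chromosomes alone were kept for the calling of clusters, so with such an index the reads of TUBB placed on the contigs would be missing from its coverage, which was not tested.

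The sites shared sequence features that are common in the data set. CATC or CACC was present in 15 of the 23 sites (65.2%, 95% Wilson interval 44.9 to 81.2) and in 10 of the 14 reproducible regions (71.4%, 45.4 to 88.3). It was present in 61.0% of the 1106 reproducible regions of at most 60 bases and in 70.5% of the 624 of these in protein-coding exons, so the share in the cytoskeletal sites was near the background. These background regions were read over the full span of the joined clusters. The sites were read on the stretch common to both replicates, or on the cluster of the only replicate. This difference also applies to the last base and the base shares below. The 8 sites without either tetramer were ACTB sites 2 and 5, the TUBA1B and TUBA1C sites over codons 221 to 229, and TUBB sites 1, 3, 4 and 5. The sites of highest coverage were divided between those with a tetramer, such as TUBA1B site 1, and those without, such as TUBA1C site 2 and TUBB site 3. The last base was G in 21 of the 23 sites (91.3%, 73.2 to 97.6) and in 86.3% of all 1106 regions. Of the 509 bases of the sites, 43.0% were C and 9.82% G, against 36.0% and 10.1% in all these regions and 39.2% and 7.62% in those of protein-coding exons. Of the 37 clusters in the 9 genes, 35 had 1 T-to-C position and 2, both of Rep.B, had 2 positions, namely ACTB site 2 and ACTG1 site 2.

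The tetramers themselves were far more frequent in the mRNAs than the sites. ACTB and ACTG1 each held 37 copies of CATC or CACC in the mRNA, the highest number per 1000 bases of the 9 (20.4 and 19.3), and 4 and 3 of these were inside sites. PFN1 and CFL1 had the lowest number per 1000 bases (12.4 and 13.7), and TUBB4B held 23 copies (14.7 per 1000 bases), close to TUBB with 38 (15.1). None of the copies in TUBB4B, CFL1 or PFN1 lay in a cluster.

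Of 109 other cytoskeletal genes in 8 lists, 7 had a cluster in Rep.A, 9 in Rep.B and 10 in either (9.17%), and 6 had a reproducible region (5.50%), each in an exon. Over all protein-coding genes, 5.56% had a cluster in either replicate and 3.32% a reproducible region. None of the 17 other tubulin genes, 11 actin-related and Arp2/3 genes, 14 genes of actin monomer binding and severing or 18 genes of microtubule binding and tubulin folding had a cluster, and lists of this size are too small to set such a 0 apart from these shares. Of 27 genes of filament capping, bundling and crosslinking, 4 had a reproducible region. Among them, PLS3 (plastin, which bundles actin filaments) had 2, the higher in coding sequence at chrX:115640424-115640444 with a coverage of 23 in Rep.A and 67 in Rep.B. MARCKS and MARCKSL1, which bind filaments at the membrane, had a 3′ UTR region each, with 31 and 86 at chr6:113860766-113860786 and 6.91 and 20 at chr1:32333883-32333904. MSN (moesin, which links filaments to the membrane) had a 3′ UTR region at chrX:65740750-65740770 with 17 and 29. MYH9, a heavy chain of non-muscle myosin, had a coding region at chr22:36305069-36305093 with 5.52 and 32.4. Of 8 intermediate filament genes, 1 had a reproducible region. This was VIM (vimentin), which had 2 regions, the higher in its 3′ UTR with 36 and 98.8 at chr10:17237415-17237436. ACTA1, MYH10 and LMNB2 had a cluster in Rep.B alone and CAPZA1 in Rep.A alone. ACTA1 encodes skeletal muscle actin. Its cluster, with a coverage of 16.3 at chr1:229432574-229432596, has a sequence that the ACTG1 mRNA also holds, while ACTG1 had no cluster there. Of the regions not shown, that of MARCKSL1 holds CACC and that of MYH9 neither tetramer. The regions of PLS3 and MARCKS hold CATC, as several actin and tubulin sites do, and those of MSN and VIM, shown beside them, hold neither tetramer.
PLS3: tcCATCttctcaatcaaatcg
MARCKS: atccCATCtcaaatcattctg
MSN: caatacccaaatcctctccag
VIM: taacaaccgacactcctacaag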

How the data were processed

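YB-1 PAR-CLIP of wild-type HEK293T cells was analysed in 2 replicates. Trimming by the authors used cutadapt 2.10, and alignment to hg38 used Bowtie 1.0.0 with a setting that places a read with several best matches at 1 of them at random. Clusters were called by wavClusteR for each replicate separately. The deposited mean coverage of a cluster is a signal (reads per base) without scaling to library depth. Other deposited columns hold a count of T-to-C transitions and a count of T bases, the crosslinking efficiency as a fraction of these, and log odds as a score. Depth was compared by the median log2 difference in coverage alone.

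Here, deposited sequences were read on the transcribed strand and compared with hg38. Regions were clusters sharing at least 1 base on the same strand. Locations were taken on the Ensembl canonical transcript (GENCODE release 44). Site sequences and windows of 22 bases were searched exactly on both strands, and clusters of at least 15 bases were matched to the mRNAs. Intervals are 95% Wilson intervals and cover counting error only, as PCR duplicates could not be told from molecules. They also treat sites with identical bases in different genes as independent, which these are not. No test was run, since there was 1 condition with no control. The members and gene lists were chosen with earlier results of these data known. The genes named are the 9 members, other listed genes with a reproducible region in an exon, and genes or pseudogenes that hold a copy of a member region and a cluster. ACTA1, CAPZA1, MYH10 and LMNB2 fall outside this rule and were named after their values were seen. Alternatives were another overlap, score and coverage thresholds, exons, another transcript, unique sequence, summed copies and single replicates. The overlap and search steps were tested on simulated data. Computations were run in Python 3.11.15 with numba 0.67.0, numpy 2.4.6, pysam 0.24.0, pandas 2.3.3 and scipy 1.17.1, and figures with matplotlib 3.10.9. Some sites are included in the counts and are not reported here singly.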

Additional observations from a re-analysis of the deposited data

How the results depend on the processing

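Of 28 recomputed values, 22 were counted as little changed, among them the 16 and 21 clusters of single replicates. These are clusters of 1 replicate and not regions found in both, so they are not the same measure as the 14 regions. Counts and shares have no direction, so a reversal could be seen only for the median log2 coverage difference, which stayed positive. The 14 reproducible regions became 6 when clusters at or above the median log odds score of their replicate were kept. There were 8 with a mean coverage of at least 10 reads in each replicate, and 3 when the sequence had to occur once on the main chromosomes. The 6 genes with a reproducible region became 3 with the median score and 3 with unique sequence. With unique sequence the coding share moved from 71.4% to 33.3% (1 of 3 regions). In single replicates, the clusters numbered 16 to 21 and the genes stayed at 6. Low coverage limits the data, since 6 of the 14 regions were below 10 reads per base in a replicate.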
